A study of Homo sapiens with 6 samples.

Results

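The SR and hnRNP families of splicing factors, with the SF3A, SF3B and U2AF proteins, were examined in sorafenib-resistant and control MHCC97H cells. Members were taken by gene symbol: every HNRNP, numbered SRSF, numbered SF3A or SF3B and U2AF symbol, plus TRA2A, TRA2B, PTBP1, PTBP2, PTBP3, RBFOX2, SRRM1 and SRRM2. This gave 59 of the 19202 genes in the table, namely 12 SR proteins, 4 SR-related and TRA2 proteins, 26 hnRNP symbols, 4 PTBP and RBFOX symbols, and 13 SF3A, SF3B and U2AF symbols. MHCC97H is a human hepatocellular carcinoma line, and sorafenib is a multikinase inhibitor given for advanced liver cancer. The resistant group held 3 libraries of MHCC97H cells titled SR (not the protein family) and labelled sorafenib resistant, and the control group 3 libraries of the same line labelled sorafenib sensitive. The labels give no drug dose, no length of selection and no clone number, and they do not say whether replicates were separate cultures, so each p-value reflects only how far these 6 libraries scatter, which may be technical.

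Most human genes are cut by introns, which the spliceosome removes. At the 3′ end of an intron the U2AF heterodimer reads the polypyrimidine tract and the AG, and the SF3A and SF3B complexes then seat the U2 snRNP on the branch site. SR proteins bind exonic enhancers and mostly promote use of an exon, while hnRNP proteins coat the pre-mRNA and many of them repress exons, so the balance between both families shapes alternative splicing. Several of them, SRSF1 among them, are known for raised levels in tumours, and most SR genes limit their own mRNA through a poison exon that sends the transcript to nonsense-mediated decay. The counts used here are per gene, so isoforms, poison exons and splice choice were not measured.

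Depth ran from 3745068 to 4961907 counts in resistant and from 1913469 to 5345272 counts in control libraries. Levels are in CPM, with TMM factors correcting the library totals, and log2FC stands for the log2 of resistant over control. A gene was called at an adjusted p under 0.05 in edgeR's quasi-likelihood test over 10804 genes. The line's label was compared with 9 hepatocellular markers: KRT8 and KRT18 were abundant, with 1010.0 to 1209 CPM in resistant and 1105 to 1401 CPM in control libraries for KRT8, while AFP was at 2.86 to 3.76 CPM in resistant and 0.587 to 4.11 CPM in control libraries, and TTR, EPCAM and GPC3 were too low to test. APOB, ALB and SERPINA1 fell, 3 of the 6 tested, and the part of such a shift in the splicing factor results was not tested. In bulk RNA, fewer cells of a type and less RNA per cell cannot be told apart. Summed fibroblast markers were at 12.2 to 44.4 CPM in resistant and 14.9 to 39.6 CPM in control libraries. Of these, COL1A2 was at 13.9 CPM in resistant replicate 3, against at most 4.11 CPM in any other library. COL3A1, PDGFRA, PDGFRB, DCN and COL1A1 were also highest there, while LUM and THY1 were highest in control replicate 3. Leukocyte markers summed to 11.7 to 16.0 CPM in resistant and 12.2 to 19.1 CPM in control libraries. Endothelial markers summed to 40.6 to 135 CPM in resistant and 50.2 to 70.8 CPM in control libraries. None of these markers was at 0 in all 6 libraries. Resistant replicate 3 stood apart in VWF (26.2 CPM) and CDH5 (19.2 CPM), against at most 3.085 CPM of either in the other 5 libraries. TEK (3.27 CPM) and KDR (42.6 CPM) were highest there too, though KDR reached 36.4 CPM in control replicate 2. PECAM1 (41.7 CPM) and ROBO4 (1.84 CPM) were lower there than in control replicate 1 (43.2 CPM) and control replicate 2 (2.64 CPM). The counts of called members are therefore also given without resistant replicate 3.

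Of the 59 members, 49 passed the filter on low counts. Among these 49, 11 rose in resistant cells, namely SRSF1, SRSF2, HNRNPH3, HNRNPF, HNRNPK, HNRNPC, SF3B6, U2AF2, SF3B3, SF3B1 and RBFOX2, and 1 fell, HNRNPA2B1. Over all tested genes 11.7% were called higher and 12.3% lower, so 22.4% of members higher lay above and 2.0% lower lay below the background. The share called in either direction, 24.5%, was near the 24.1% of all tested genes. The members' median log2FC was 0.14, against -0.01 over all tested genes, and 34 of 49 had a log2FC above 0. Without resistant replicate 3 the calls were 9 higher and 1 lower, and without control replicate 1 and resistant replicate 3 together 7 higher and 1 lower. Over all tested genes the calls higher numbered 1079 without resistant replicate 3 and 848 without both libraries, beside 1269 with all 6, so both counts were lower in those fits.

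Among the 49 tested members the highest log2FC was 0.88, for HNRNPH3, and none reached a 2-fold change by the group means. In 18 tested members the resistant libraries all exceeded the control libraries, and in 4 they were all lower. That is 36.7% and 8.2% of members, beside 19.2% and 18.9% of all tested genes. Summed over the 59 members, resistant libraries had 11560 to 11890 CPM and control libraries 10500 to 10800 CPM, without overlap.

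**Figure D1:**
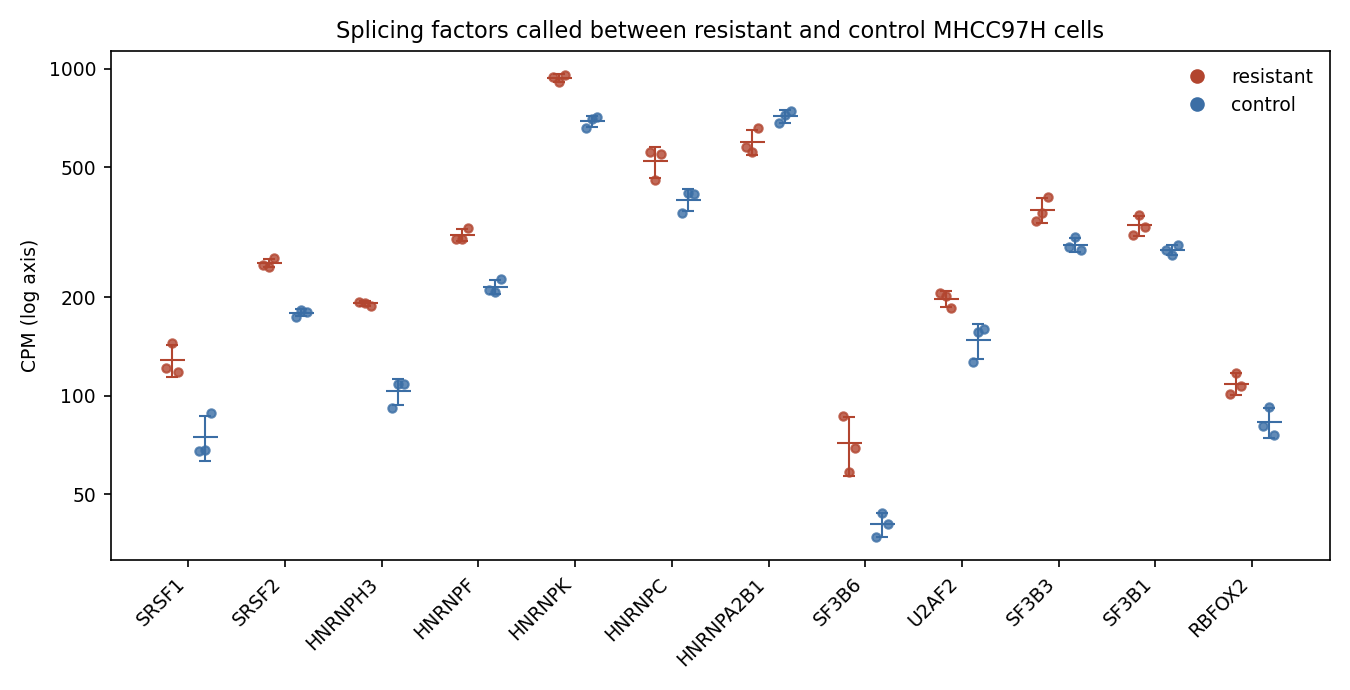
CPM on a log axis in each library for the 12 called members, with resistant libraries left of control libraries; points are libraries and bars are mean ± SD (n = 3 each). For each gene the resistant and control points do not overlap, and HNRNPA2B1 is the one gene whose resistant points lie lower.

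Promoter sequences of the 4 members with the largest log2FC among those called higher, and of HNRNPA2B1, are shown because these genes had the largest calls in either direction. They run from 250 bases before to 50 after the RefSeq gene start on GRCh38.p14, and are written 5′ to 3′ on the gene's strand. Capitals mark matches on either strand to any of 4 motifs. The E-box was searched as CACGTG. The CCAAT box was searched by the letters of its name. The GC box was searched as GGGCGG. The ETS core was searched as CCGGAAG, and no overlap between motifs was removed.
HNRNPH3 (chr10:68331443-68331742, plus strand): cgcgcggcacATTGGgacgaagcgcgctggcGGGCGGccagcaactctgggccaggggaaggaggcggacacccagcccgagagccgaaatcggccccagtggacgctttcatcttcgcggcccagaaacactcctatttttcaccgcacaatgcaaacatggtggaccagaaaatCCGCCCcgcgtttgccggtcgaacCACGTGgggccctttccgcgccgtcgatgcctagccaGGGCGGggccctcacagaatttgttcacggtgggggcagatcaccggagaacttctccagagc
SF3B6 (chr2:24076277-24076576, minus strand): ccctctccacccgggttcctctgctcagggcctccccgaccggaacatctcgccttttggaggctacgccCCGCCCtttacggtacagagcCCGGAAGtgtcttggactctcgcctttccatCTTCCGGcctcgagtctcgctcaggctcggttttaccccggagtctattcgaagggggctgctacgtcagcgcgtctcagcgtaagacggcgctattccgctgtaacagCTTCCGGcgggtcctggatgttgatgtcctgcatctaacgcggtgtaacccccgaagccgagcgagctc
SRSF1 (chr17:58007197-58007496, minus strand): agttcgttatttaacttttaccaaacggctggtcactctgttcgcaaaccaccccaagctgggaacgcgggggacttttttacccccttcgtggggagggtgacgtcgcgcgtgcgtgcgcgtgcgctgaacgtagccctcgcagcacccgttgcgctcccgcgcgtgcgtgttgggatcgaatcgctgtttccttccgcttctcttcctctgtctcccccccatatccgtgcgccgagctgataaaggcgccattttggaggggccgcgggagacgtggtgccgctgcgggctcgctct
HNRNPF (chr10:43408808-43409107, minus strand): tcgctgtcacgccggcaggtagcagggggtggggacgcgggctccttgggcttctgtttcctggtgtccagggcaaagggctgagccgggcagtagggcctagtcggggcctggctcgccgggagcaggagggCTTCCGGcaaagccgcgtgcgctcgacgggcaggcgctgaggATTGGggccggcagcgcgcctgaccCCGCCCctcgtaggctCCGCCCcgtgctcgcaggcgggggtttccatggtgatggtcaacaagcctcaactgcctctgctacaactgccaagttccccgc
HNRNPA2B1 (chr7:26200697-26200996, minus strand): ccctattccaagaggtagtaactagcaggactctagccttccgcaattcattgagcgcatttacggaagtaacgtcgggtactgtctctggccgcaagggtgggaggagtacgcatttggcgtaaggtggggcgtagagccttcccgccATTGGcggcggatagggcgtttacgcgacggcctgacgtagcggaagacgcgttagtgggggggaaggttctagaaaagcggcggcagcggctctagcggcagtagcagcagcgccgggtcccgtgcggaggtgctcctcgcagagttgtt

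The HNRNPH3 window held an E-box whose first base lay 50 bases before the start, 3 GC boxes and a CCAAT match. The SF3B6 window held 3 ETS cores and a GC box, and that of HNRNPF a CCAAT match, 2 GC boxes and an ETS core. HNRNPA2B1 had a CCAAT match alone, and SRSF1 had none of the letters searched. TGACGTCA (CRE) and the NRF1 core were searched as well and were in 0 of the 44 tested members with a promoter in the table. Both were rare elsewhere, at 3.4% and 2.4% of 8680 tested genes and 2.0% and 1.4% of all 27305 promoters. An E-box was in 8 of the 44 members (18.2%), beside 10.3% of 8680 tested genes and 7.4% of all promoters. The ETS core was in 12 (27.3%), beside 20.3% and 10.7%, CCAAT in 18 (40.9%), beside 36.8% and 35.7%, and the GC box in 31 (70.5%), beside 71.3% and 44.6%. Among the 8 higher members with a sequence the E-box was in 2, the ETS core in 3, CCAAT in 3 and the GC box in 6. These are matches of letters, not sites. The table matched 52 of 59 members by symbol, and SRSF2, SF3B3 and RBFOX2 are named without a sequence.

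Among the SR proteins, which carry an arginine-serine domain behind their RNA recognition motifs, 2 of 11 tested members rose and 0 fell. That is 18.2% higher and 0.0% lower, beside 11.7% and 12.3% of all tested genes. SRSF1, an enhancer-binding factor known as a product that can transform cells when overproduced, had 122, 146 and 118 CPM in resistant replicates 1, 2 and 3, against 67.9, 68.4 and 88.6 CPM in control replicates 1, 2 and 3. All resistant libraries lay above all control libraries, and the highest control value was that of replicate 3. The means were 129 ± 14.8 CPM in resistant and 74.9 ± 11.8 CPM in control cells (SD, n = 3 each), 1.72-fold, with log2FC 0.78 ± 0.13 (SE) at an edgeR adjusted p of 1.41e-05. SRSF2, which also binds exonic enhancers and is mutated in myeloid neoplasms, had 252, 248 and 263 CPM in resistant replicates 1, 2 and 3, against 174, 183 and 181 CPM in control replicates 1, 2 and 3. The values within each group were close together, and SRSF2 had log2FC 0.50 ± 0.10 (SE) at an edgeR adjusted p of 0.000152. In the gene models 36.7% of SRSF2 exon bases overlap exons of MFSD11 on the opposite strand, and whether counting used strand is not stated in the labels. MFSD11 itself had a log2FC of -0.37 (adjusted p = 0.19 in edgeR). Of the distinct 50-base words in SRSF1 transcripts, 50.8% also occur in AC015813.2. This is a transcript model of another gene that is not in the count table. Whether it overlaps SRSF1 in position was not examined, so the SRSF1 level is uncertain to an unknown extent.

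SRSF6, an SR protein of the group with paired RNA recognition motifs, pointed the other way without passing. It had 124, 101 and 117 CPM in resistant replicates 1, 2 and 3, against 167, 133 and 129 CPM in control replicates 1, 2 and 3. Every resistant library lay below every control library, with log2FC -0.31 ± 0.12 (SE) at an edgeR adjusted p of 0.0516. It passed in 5 of 17 alternatives, with an adjusted p of 0.0352 to 0.0481 in those and of up to 0.358 over all of them. SRSF3, the smallest SR protein and an export adaptor, was not called, with 235 to 265 CPM in resistant and 249 to 251 CPM in control libraries and log2FC 0.01 ± 0.10 (SE) at an edgeR adjusted p of 0.976. SRSF5 had 58.7, 44.0 and 64.7 CPM in resistant replicates 1, 2 and 3, against 70.4, 63.6 and 56.0 CPM in control replicates 1, 2 and 3, and the groups overlapped. Its log2FC was -0.17 (SE 0.16). The other tested SR proteins, SRSF4, SRSF7, SRSF8, SRSF9, SRSF10 and SRSF11, had log2FC from -0.22 to 0.21 and none was called. SRSF7 and SRSF9 nevertheless had no overlap between groups, both with resistant libraries higher. For SRSF9, exons of GATC on the opposite strand cover 46.2% of its exon bases. SRSF12 had 2 to 8 counts in resistant and 4 to 14 counts in control libraries and was not tested.

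The ratios of SRSF5 and of SRSF11 to SRSF1 were compared library by library. The log2 ratio of SRSF5 to SRSF1 was -1.05, -1.73 and -0.87 in resistant replicates 1, 2 and 3, against 0.05, -0.10 and -0.66 in control replicates 1, 2 and 3. That of SRSF11 to SRSF1 was 0.22, 0.075 and 0.37 in resistant and 0.64, 1.04 and 0.72 in control replicates 1, 2 and 3. Neither ratio overlapped between groups, and each was lower in resistant cells, by 0.98 for SRSF5 and 0.57 for SRSF11. Both ratios share SRSF1 and so are not independent of its rise. Summed over the 12 SR genes, resistant libraries had 1369, 1368 and 1418 CPM and control libraries 1210, 1216 and 1267 CPM.

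None of the 4 SR-related and TRA2 genes was called. SRRM2, a large scaffold of nuclear speckles, had 791, 992 and 885 CPM in resistant replicates 1, 2 and 3, against 786, 862 and 743 CPM in control replicates 1, 2 and 3. The groups overlapped, with log2FC 0.16 ± 0.09 (SE) at an edgeR adjusted p of 0.216, and it passed without resistant replicate 1 (adjusted p = 0.0355 in edgeR). SRRM1, another speckle coactivator, had a log2FC of 0.06 (SE 0.13). The enhancer-binding paralogs TRA2B and TRA2A had log2FC of 0.05 (SE 0.11) and -0.21 (SE 0.15). The log2 ratio of TRA2A to TRA2B ran from -1.82 to -1.65 in resistant and from -1.95 to -1.16 in control libraries, so control libraries covered a wider range that held all the resistant values.

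**Figure D2:**
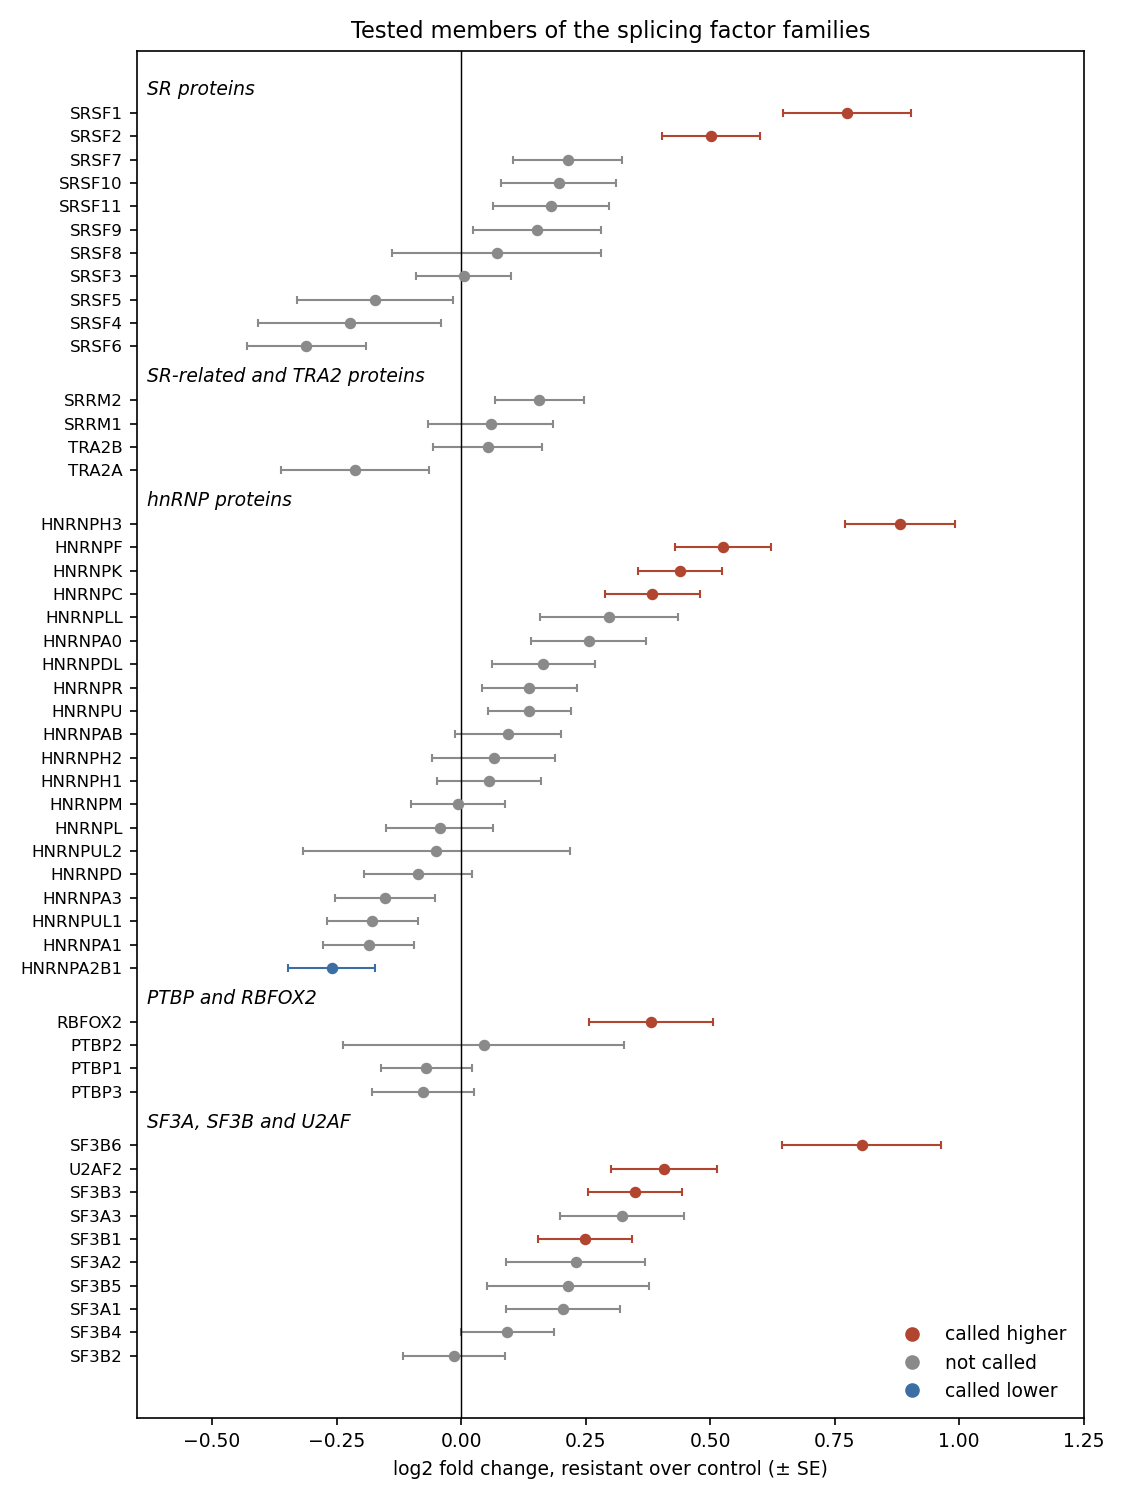
log2 fold change, resistant over control, with its SE for the 49 tested members, grouped by role and sorted within each group; red points were called higher, blue lower and grey were not called. Most points lie right of 0, with HNRNPH3 at 0.88, SF3B6 at 0.80 and SRSF1 at 0.78, and HNRNPA2B1 at -0.26 is the blue point.

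Among the hnRNP proteins 4 of 20 tested members rose and 1 fell, beside 11.7% and 12.3% of all tested genes. Called in either direction were 5 of 20, near the 24.1% of all tested genes. HNRNPH3, a small member of the H and F group that binds G-rich tracts, had 194, 193 and 188 CPM in resistant replicates 1, 2 and 3, against 92.0, 109 and 109 CPM in control replicates 1, 2 and 3. The resistant libraries differed by less than 7 CPM, and the lowest of them lay far above the highest control library. The means were 192 ± 3.31 CPM in resistant and 103 ± 9.65 CPM in control cells (SD, n = 3 each), 1.86-fold, with log2FC 0.88 ± 0.11 (SE) at an edgeR adjusted p of 6.7e-08. HNRNPF, another G-tract binder, had 302, 303 and 325 CPM in resistant replicates 1, 2 and 3, against 210.3, 208 and 228 CPM in control replicates 1, 2 and 3, and log2FC 0.53 ± 0.10 (SE) at an edgeR adjusted p of 6.01e-05. All resistant libraries lay above all control libraries for both genes. The close relatives HNRNPH1 and HNRNPH2 were not called, with 252 ± 32.9 CPM in resistant and 243 ± 24.1 CPM in control cells for HNRNPH1 (SD, n = 3 each), and log2FC of 0.06 (SE 0.10) and 0.07 (SE 0.12). The log2 ratio of HNRNPF to HNRNPH1 was 0.43, 0.07 and 0.42 in resistant and -0.30, -0.29 and 0.08 in control replicates 1, 2 and 3. It overlapped in a single pair of libraries, resistant replicate 2 and control replicate 3.

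HNRNPF and HNRNPH3 both lie on chromosome 10, where other genes were also higher. Of 417 tested genes placed on chromosome 10, 128 (30.7%) were called higher and 12 (2.9%) lower, beside 11.0% higher and 12.7% lower of the 10353 tested genes placed elsewhere. Of the 5 tested genes on each side of HNRNPH3, 3 of 10 were called higher and 0 lower, with a median log2FC of 0.49. Around HNRNPF 2 of 10 were called higher and 0 lower, with a median of 0.17. Around the other 10 called members the median of the 10 neighbours ran from -0.34 for RBFOX2 to 0.12 for U2AF2, and the neighbours of SRSF1 were 0 higher and 0 lower of 10. The part of the chromosome in the values of HNRNPF and HNRNPH3 was not tested. Gene order is that of GENCODE 29, while the submitters' own build is not stated in the labels.

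**Figure D3:**
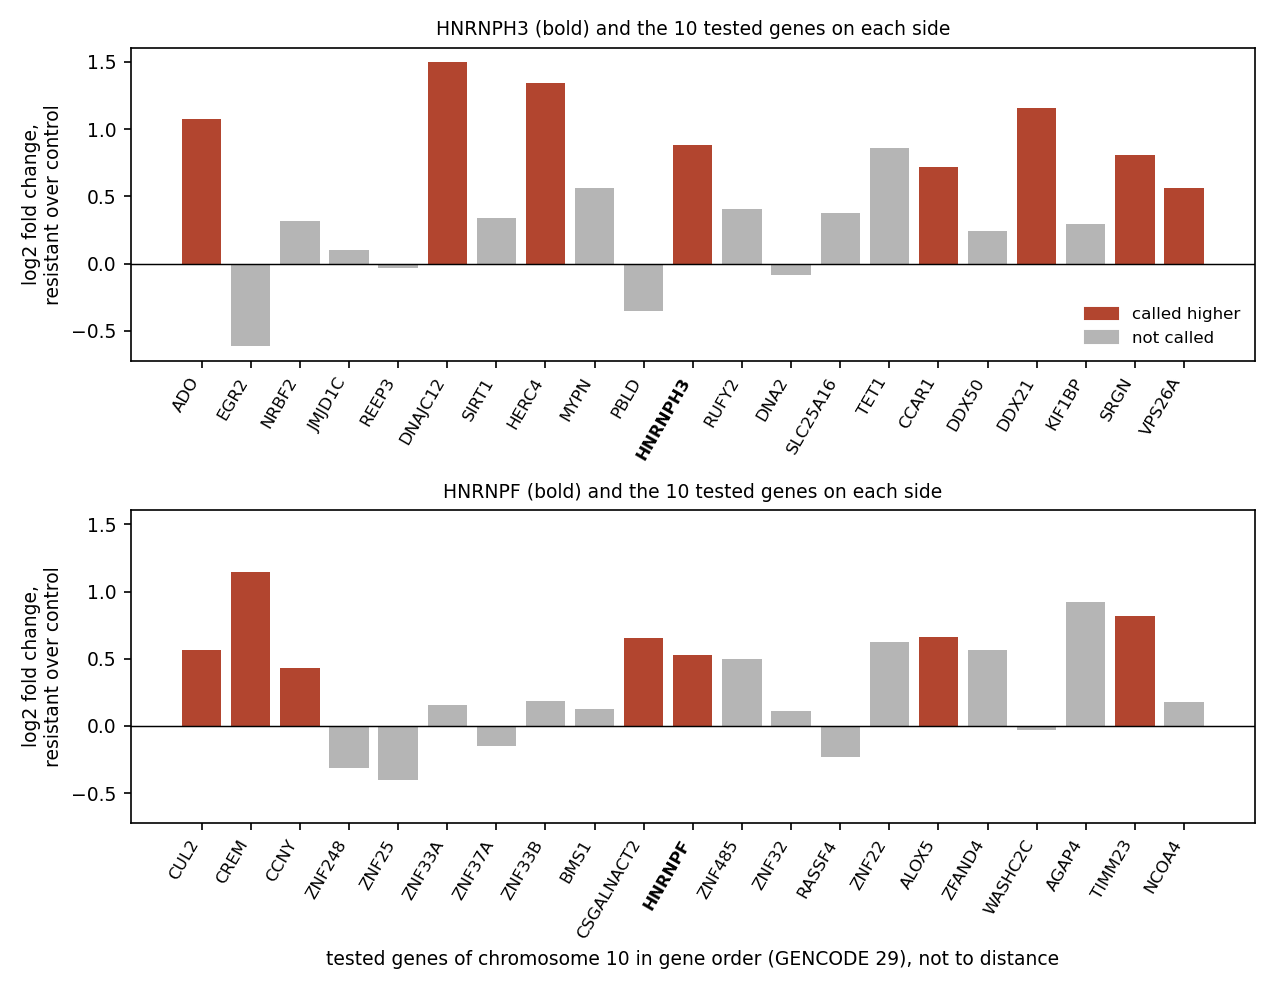
log2 fold change, resistant over control, of the 10 tested genes on each side of HNRNPH3 (upper panel) and of HNRNPF (lower panel) in gene order along chromosome 10; red bars were called higher and grey bars were not called. No gene in either window was called lower, and HERC4 (1.34), DDX21 (1.16) and CREM (1.14) were among the called genes above both members.

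HNRNPK, a poly(C)-binding protein that acts in transcription, splicing and translation, was one of the 2 hnRNPs of highest CPM over both groups together, though in control cells HNRNPA2B1 averaged more. It had 946, 909 and 961 CPM in resistant replicates 1, 2 and 3, against 660.2, 701 and 713 CPM in control replicates 1, 2 and 3. The groups were far apart relative to their spread, with log2FC 0.44 ± 0.08 (SE) at an edgeR adjusted p of 0.000113. HNRNPC, which packages nascent transcripts and keeps U2AF off cryptic sites in U-rich introns, had 556, 456 and 551 CPM in resistant replicates 1, 2 and 3, against 362, 418 and 413 CPM in control replicates 1, 2 and 3. Resistant replicate 2 was the lowest of its group, yet above all control libraries, with log2FC 0.38 ± 0.10 (SE) at an edgeR adjusted p of 0.00231. The HNRNPC call was lost without control replicate 1 and resistant replicate 3 together (adjusted p = 0.106 in edgeR). Among all 50-base words of their transcripts, 8.5% for HNRNPK and 5.9% for HNRNPC also occur in other genes, pseudogenes of theirs among them.

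HNRNPA2B1, a repressor of exons and a reader of sorting motifs in RNA, was the single member called lower. It had 576, 559 and 660.0 CPM in resistant replicates 1, 2 and 3, against 683, 722 and 744 CPM in control replicates 1, 2 and 3. Resistant replicate 3 came closest to the control range, and the groups did not overlap. The means were 598 ± 54.1 CPM in resistant and 716 ± 31.1 CPM in control cells (SD, n = 3 each), with log2FC -0.26 ± 0.09 (SE) at an edgeR adjusted p of 0.027. The call was lost without resistant replicate 1 (adjusted p = 0.0694 in edgeR), resistant replicate 2 (0.153), control replicate 2 (0.0655) or control replicate 3 (0.153). CBX3 starts 367 bases from the HNRNPA2B1 start on the opposite strand, and its exons overlap 4.0% of HNRNPA2B1 exon bases. CBX3 had a log2FC of -0.03. Among opposite-strand genes starting within 1000 bases of other tested members, CBX5 beside HNRNPA1 (log2FC -0.407) and GLA beside HNRNPH2 (-0.431) were called lower. DYNLL1 beside SRSF9 was called higher (0.385), and the rest of these genes were not called. HNRNPA1, a paralog of HNRNPA2B1 and a classic antagonist of SRSF1 at splice sites, had 499, 412 and 469 CPM in resistant replicates 1, 2 and 3, against 524, 503 and 543 CPM in control replicates 1, 2 and 3. Its groups did not overlap either, with log2FC -0.19 ± 0.09 (SE) at an edgeR adjusted p of 0.137. The log2 ratio of HNRNPA1 to HNRNPA2B1 ran from -0.49 to -0.21 in resistant and from -0.52 to -0.38 in control libraries, overlapping. HNRNPA1 shares 22.8% of its 50-base words with 57 other genes, pseudogenes among them, and HNRNPA3 16.5% with 19, so both are uncertain. HNRNPA3 had a log2FC of -0.15 (SE 0.10).

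HNRNPU, a nuclear matrix protein and the other of that pair, had 851, 864 and 875 CPM in resistant replicates 1, 2 and 3, against 747, 824 and 782 CPM in control replicates 1, 2 and 3. The groups did not overlap, but the difference was small, with log2FC 0.14 ± 0.08 (SE) at an edgeR adjusted p of 0.251. HNRNPLL, known for control of CD45 splicing in T cells, had 72.5, 78.8 and 74.7 CPM in resistant replicates 1, 2 and 3, against 65.8, 58.6 and 60.7 CPM in control replicates 1, 2 and 3. The groups did not overlap, and its log2FC of 0.30 (SE 0.14) was the largest among hnRNPs not called (adjusted p = 0.116 in edgeR). HNRNPA0 had log2FC 0.26 ± 0.12 (SE) at an edgeR adjusted p of 0.106 and no overlap, and HNRNPUL1 had log2FC -0.18 ± 0.09 (SE) at an edgeR adjusted p of 0.165 with all resistant libraries lower. The remaining tested hnRNPs, HNRNPAB, HNRNPD, HNRNPDL, HNRNPL, HNRNPM, HNRNPR and HNRNPUL2, had log2FC from -0.09 to 0.17, and none was called. HNRNPUL2 rested on 60 to 96 counts in resistant and 42 to 80 counts in control libraries.

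None of the 3 polypyrimidine-tract proteins was called. PTBP1, which represses neuronal and muscle exons, had 409.8, 405 and 399 CPM in resistant replicates 1, 2 and 3, against 462, 414 and 401 CPM in control replicates 1, 2 and 3. The groups overlapped, with log2FC -0.07 ± 0.09 (SE) at an edgeR adjusted p of 0.635. PTBP3 had log2FC -0.08 ± 0.10 (SE) at an edgeR adjusted p of 0.646, and the neuronal paralog PTBP2 had 12.5 to 21.1 CPM in resistant and 12.8 to 16.9 CPM in control libraries. The log2 ratio of PTBP2 to PTBP1 averaged -4.74 ± 0.40 in resistant and -4.85 ± 0.29 in control cells, and that of PTBP3 to PTBP1 -0.97 ± 0.11 in resistant and -0.96 ± 0.04 in control cells (SD, n = 3 each). RBFOX2, which binds GCAUG elements near exons and takes part in epithelial-mesenchymal splicing programmes, had 101, 118 and 107 CPM in resistant replicates 1, 2 and 3, against 80.7, 92.7 and 75.7 CPM in control replicates 1, 2 and 3. The lowest resistant library lay above the highest control library, with log2FC 0.38 ± 0.12 (SE) at an edgeR adjusted p of 0.0216. The call was lost on leaving out resistant replicate 2 (edgeR adjusted p = 0.104), control replicate 1 (0.052) or control replicate 3 (0.109).

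Of the SF3A, SF3B and U2AF genes, 4 of 10 tested members rose and 0 fell, beside 11.7% and 12.3% of all tested genes. A log2FC above 0 was found in 9 of 10, beside 5333 of all 10804 tested genes. SF3B6, the small subunit known as p14 that touches the branch point region, had 86.9, 58.3 and 69.2 CPM in resistant replicates 1, 2 and 3, against 37.0, 43.7 and 40.5 CPM in control replicates 1, 2 and 3. Resistant replicate 1 was the highest, and the lowest resistant library was well above all control libraries. The means were 71.5 ± 14.4 CPM in resistant and 40.4 ± 3.34 CPM in control cells (SD, n = 3 each), 1.77-fold, with log2FC 0.80 ± 0.16 (SE) at an edgeR adjusted p of 0.000189. U2AF2, the large U2AF subunit that binds the polypyrimidine tract, had 206, 202 and 186 CPM in resistant replicates 1, 2 and 3, against 127, 156 and 160.2 CPM in control replicates 1, 2 and 3. Control replicate 1 was the lowest of all, and the groups did not overlap, with log2FC 0.41 ± 0.11 (SE) at an edgeR adjusted p of 0.0042.

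SF3B3, a scaffold subunit of SF3B, had 342, 363 and 405 CPM in resistant replicates 1, 2 and 3, against 284, 306 and 279.9 CPM in control replicates 1, 2 and 3. It had log2FC 0.35 ± 0.10 (SE) at an edgeR adjusted p of 0.00547, with resistant replicate 3 the highest library, and the call was lost without that library (adjusted p = 0.0631 in edgeR). SF3B1, the subunit that cradles the branch point adenosine and is mutated in several cancers, had 311, 357 and 328 CPM in resistant replicates 1, 2 and 3, against 279.7, 270.2 and 289 CPM in control replicates 1, 2 and 3. The groups did not overlap, but log2FC 0.25 ± 0.09 (SE) at an edgeR adjusted p of 0.0493 lay close to the threshold. The SF3B1 call was lost in 11 of 17 alternatives, among them leaving out any library but resistant replicate 1, with adjusted p of up to 0.19 in edgeR. SF3A3, a subunit that bridges SF3A to the U2 snRNA, had 98.0, 103 and 95.5 CPM in resistant replicates 1, 2 and 3, against 82.3, 79.7 and 75.4 CPM in control replicates 1, 2 and 3. Its groups did not overlap, and log2FC 0.32 ± 0.12 (SE) at an edgeR adjusted p of 0.0541 missed the threshold. SF3A3 passed with a filter of at least 1 CPM in 3 libraries (edgeR adjusted p = 0.0473) and in limma-voom (0.0496). SF3A1 had no overlap either, with log2FC 0.20 ± 0.11 (SE) at an edgeR adjusted p of 0.201, whereas SF3A2 had a log2FC of 0.23 and SF3B5 one of 0.21, both with overlap. SF3B4, with 387 to 462 CPM in resistant and 361 to 409.8 CPM in control libraries, and SF3B2 had log2FC of 0.09 (SE 0.09) and -0.01 (SE 0.10). Subunits of 1 complex thus spanned log2FC from -0.01 to 0.80.

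The small U2AF subunit, which reads the AG, was hardly counted. U2AF1 had 8, 46 and 4 counts in resistant replicates 1, 2 and 3, against 4, 6 and 8 counts in control replicates 1, 2 and 3. U2AF1L5 had 2, 10 and 8 counts in resistant and 21, 11 and 2 counts in control replicates 1, 2 and 3. Both symbols name near-identical loci on chromosome 21, and 94.3% of the 50-base words of each occur in other transcripts, the other locus first among them. Their levels are therefore uncertain. U2AF1L4 had 7 to 22 counts in resistant and 6 to 13 in control libraries. The other untested members were HNRNPA1L2, with 4 to 10 counts in resistant and 2 to 7 counts in control libraries, HNRNPCL2, with 1 count in resistant replicate 2, and HNRNPCL1, HNRNPCL3, HNRNPCL4 and the read-through HNRNPUL2-BSCL2, with 0 counts in every library.

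Levels between genes were compared as mean CPM per kb of annotated exon length. SF3B4 was highest in both groups, at 187 in resistant and 175 in control cells, followed by HNRNPK at 184 in resistant and 135 in control cells. HNRNPF took place 3 in resistant cells at 95.3, against 66.2 and place 6 in control cells. HNRNPA2B1 took place 10 at 64.6 in resistant and place 4 at 77.3 in control cells, and SRSF1 place 19 at 38.5 in resistant and place 31 at 22.4 in control cells. HNRNPH3 took place 23 at 35.6 in resistant and place 34 at 19.2 in control cells. PTBP2, at 1.21 in resistant and 1.15 in control cells, was the lowest of the tested members. Neighbours in this order can differ by less than their spread, as HNRNPC (71.3) and SF3B5 (71.2) do in resistant cells. Annotated exon length counts every isoform, whether or not these cells use it.

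**Figure D4:**
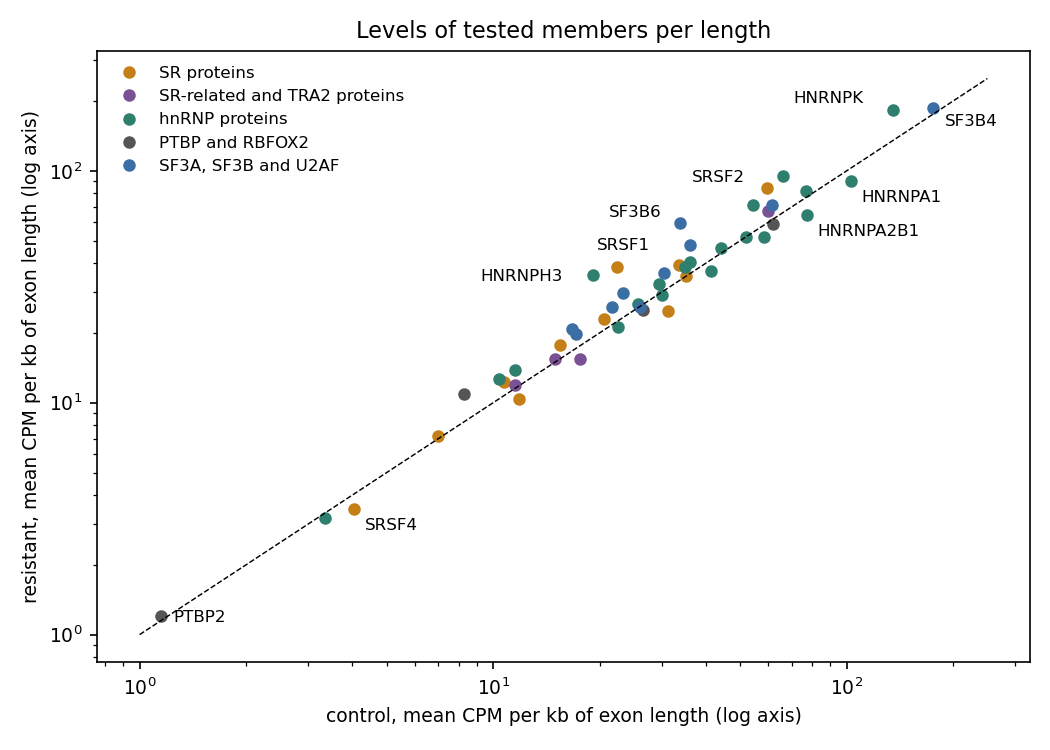
Mean CPM per kb of annotated exon length in resistant cells (vertical log axis) against control cells (horizontal log axis) for the 49 tested members, coloured by role; the dashed line marks equal levels. SF3B4 and HNRNPK are at the upper right, PTBP2 is at the lower left, and SRSF1, HNRNPH3 and SF3B6 lie above the line.

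Genes of 7 partner lists of the splicing machinery were counted in the same fit. Of 10 tested SR kinases and import factors 3 rose and 0 fell, beside 11.7% and 12.3% of all tested genes, and the list's median was 0.115 (log2FC). CLK1, a kinase that phosphorylates SR proteins in the nucleus, had 79.8, 48.9 and 62.4 CPM in resistant replicates 1, 2 and 3, against 39.1, 38.4 and 31.7 CPM in control replicates 1, 2 and 3. The groups did not overlap, with log2FC 0.81 ± 0.17 (SE) at an edgeR adjusted p of 0.000452. CLK3 had log2FC 0.55 ± 0.15 (SE) at an edgeR adjusted p of 0.00628, and its call was lost without control replicate 1 and resistant replicate 3 together (edgeR adjusted p = 0.103), where 1 gene of the list was called higher. Of 6 hnRNP proteins filed under other symbols 3 rose and 0 fell, with a median of 0.30. SYNCRIP, or hnRNP Q, had 277, 298 and 284 CPM in resistant replicates 1, 2 and 3, against 169, 185 and 196 CPM in control replicates 1, 2 and 3, and log2FC 0.64 ± 0.10 (SE) at an edgeR adjusted p of 4.18e-06. RBMX, or hnRNP G, had log2FC 0.42 ± 0.10 (SE) at an edgeR adjusted p of 0.00117.

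Of all tested genes 11.7% were called higher and 12.3% lower. Of 26 other tested regulators of alternative splicing 9 rose (34.6%) and 2 fell (7.7%), with a median log2FC of 0.19. The calls higher numbered 4 without control replicate 3, 5 without resistant replicate 2 or control replicate 1, and 6 or 7 without any other single library, and the calls lower numbered 1 without resistant replicate 2, resistant replicate 3 or control replicate 3. Without control replicate 1 and resistant replicate 3 together they were 4 higher and 1 lower. Over all tested genes the calls higher numbered 1028 to 1107 without 1 library and 848 without both, beside 1269 with all 6. The calls lower over all tested genes numbered 973 to 1154 and 910, beside 1332. RBM39, the SR-like protein that aryl sulfonamides degrade, had 509, 567 and 509.8 CPM in resistant replicates 1, 2 and 3, against 325, 395 and 394 CPM in control replicates 1, 2 and 3, and log2FC 0.50 ± 0.09 (SE) at an edgeR adjusted p of 8.07e-05. MBNL2, a developmental splicing regulator, was lower, with 45.5, 36.0 and 42.8 CPM in resistant replicates 1, 2 and 3, against 86.9, 61.8 and 69.5 CPM in control replicates 1, 2 and 3, and log2FC -0.79 ± 0.16 (SE) at an edgeR adjusted p of 0.000197. Of 20 Sm, LSm, U1 and U2 snRNP proteins 5 rose and 0 fell, with a median of 0.30. The calls higher numbered 1 without resistant replicate 1, 3 without control replicate 1 or control replicate 2, and 5 or 6 without any other single library. The Sm ring proteins SNRPD2 and SNRPG had log2FC of 0.43 (SE 0.12) and 0.49 (SE 0.14), and SNRPD2 lost its call on leaving out resistant replicate 1 (edgeR adjusted p = 0.0659) or control replicate 2 (0.0974).

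Of all tested genes 11.7% were called higher and 12.3% lower. Of 11 tested branch site and U2-associated factors 2 rose (18.2%) and 0 fell, with a median of 0.11. These were SF1, the branch point binding protein that works with U2AF2, with 528, 515 and 537 CPM in resistant replicates 1, 2 and 3, against 359, 428 and 330.3 CPM in control replicates 1, 2 and 3, and PHF5A, a subunit of the SF3B complex. SF1 had log2FC 0.50 ± 0.10 (SE) at an edgeR adjusted p of 0.000118, and PHF5A log2FC 0.64 ± 0.17 (SE) at an edgeR adjusted p of 0.00428. Of 21 tri-snRNP and catalytic core proteins 2 rose (9.5%) and 1 fell (4.8%), with a median of -0.02. The call lower, EFTUD2, was lost without resistant replicate 2, resistant replicate 3, control replicate 1 or control replicate 3. It was also lost in DESeq2, in limma-voom, with no filter, with at least 1 CPM in 3 libraries and at an adjusted p of 0.01. PRPF4 of the U4/U6 snRNP had a log2FC of 0.57, and its call did not hold without control replicate 2 (edgeR adjusted p = 0.111), which left 1 call higher. PLRG1 of the PRP19 complex had log2FC 0.49 ± 0.11 (SE) at an edgeR adjusted p of 0.000547. Of 19 exon junction and nonsense-mediated decay genes 2 rose (10.5%) and 1 fell (5.3%), with a median of 0.11. SMG5, a decay factor that helps to recycle UPF1, fell, with 342, 349 and 352 CPM in resistant replicates 1, 2 and 3, against 457, 494 and 482 CPM in control replicates 1, 2 and 3, and log2FC -0.46 ± 0.09 (SE) at an edgeR adjusted p of 0.000146. SMG9, a regulator of the SMG1 kinase, had log2FC 0.48 ± 0.11 (SE) at an edgeR adjusted p of 0.00148.

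**Figure D5:**
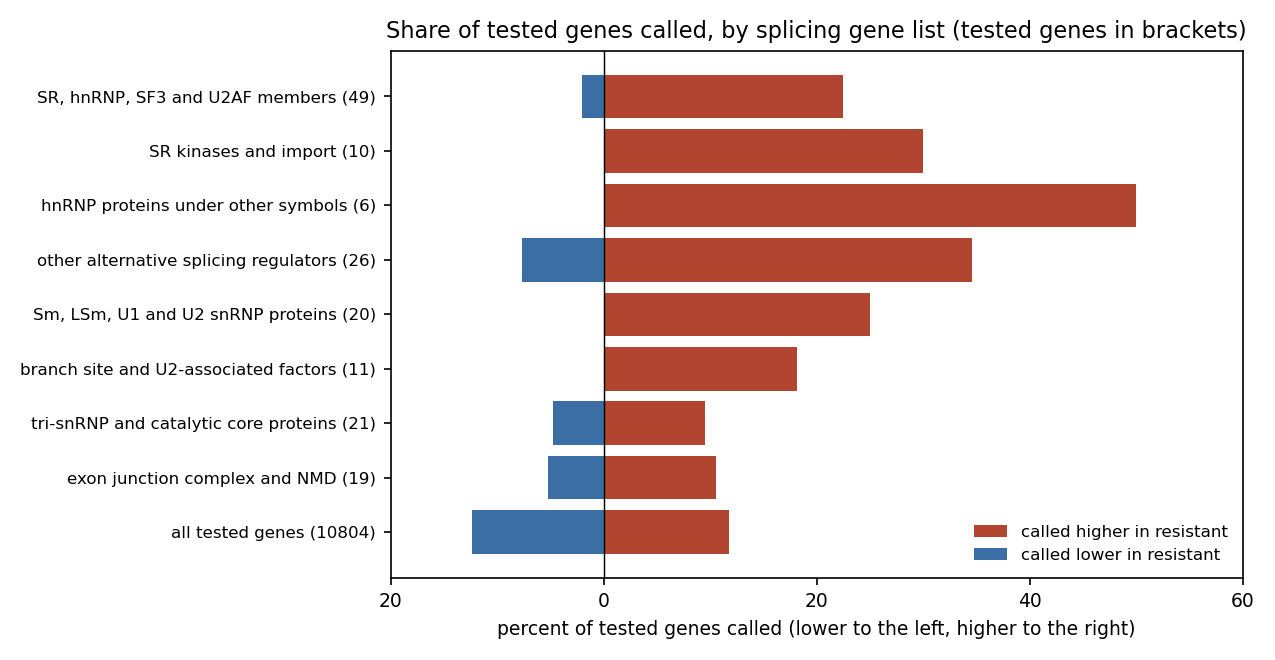
Percent of tested genes called higher (red, to the right) and lower (blue, to the left) in resistant cells for the members, 7 lists of partner genes and all tested genes, with the number tested in brackets. Members were called higher in 22.4% and lower in 2.0%, beside 11.7% and 12.3% of all tested genes, and for higher calls the exon junction list (10.5%) and the tri-snRNP list (9.5%) lie closest to all tested genes.

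In gene span on GRCh38 (GENCODE 29, matched by symbol), HNRNPF spans, on chromosome 10 and its minus strand, 43385617 to 43409166 and HNRNPH3, on the plus strand, 68331174 to 68343191. SRSF1 and SRSF2 are both minus-strand genes of chromosome 17, from 58003360 to 58007346 and from 76734115 to 76737374. SF3B6 and SF3B1 are both minus-strand genes of chromosome 2, from 24067584 to 24076443 and from 197389784 to 197435091. HNRNPA2B1 is on chromosome 7 from 26173057 to 26201529, HNRNPK on chromosome 9 from 83968083 to 83980616, and HNRNPC on chromosome 14 from 21209136 to 21269494. SF3B3 is on chromosome 16 from 70523788 to 70577670, U2AF2 on chromosome 19 from 55654146 to 55674715, and RBFOX2 on chromosome 22 from 35738736 to 36028425.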

How the data were processed

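RNA of 3 sorafenib-resistant and 3 control MHCC97H libraries was sequenced; Trizol and a column kit gave the RNA, per the labels' protocols. The authors deposited raw counts for each gene symbol as whole numbers. Trimmomatic, HISAT2 and Bowtie2 are named, without roles, per the submitters' processing notes. Neither label nor file header gives versions, counter, build, annotation or strand use, so overlapping genes and near-identical copies are uncertain. The whole table equalled the single-library files, and 27 symbols turned into dates were renamed from the Entrez ID. Of counts from 1 to 20, 81.9 to 88.5% were even, and counts halved, as if both mates of a pair had been counted, were an alternative.

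Low counts were removed with filterByExpr and TMM factors applied. The main test was edgeR's quasi-likelihood test (version 4.0.16, under R 4.3.3), a model of group alone, and Benjamini-Hochberg adjustment over 10804 genes. The SE is the log2FC over the square root of F. The test was checked on simulated counts with known changes, of which it found the smallest less often than the larger ones. DESeq2 1.42.0, limma-voom (limma 3.58.1), other scalings and filters, a replicate block, a stricter threshold and leaving out libraries were alternatives. Leaving out control replicate 1 with resistant replicate 3 was chosen after the data were seen, as were the motifs, the neighbouring and overlapping genes and the shared 50-base words.

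Named genes were every called member, in each role the 2 of highest CPM and the uncalled member of largest log2FC, the paralog pairs, and 2 called genes per partner list; others were chosen after their values were seen. Members and lists were chosen with earlier results of these data known. Exon lengths, spans and transcripts came from GENCODE 29 (all 59 members matched) and promoters from RefSeq (GRCh38.p14). Plots used matplotlib 3.10.9 (Python 3.11.15).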

Additional observations from a re-analysis of the deposited data

How the results depend on the processing

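Of the 12 called members, 7 (HNRNPF, HNRNPH3, HNRNPK, SF3B6, SRSF1, SRSF2 and U2AF2) kept their call in all 17 alternatives, and no tested member turned its direction while called. SF3B1, HNRNPA2B1, RBFOX2, SF3B3 and HNRNPC lost theirs in 11, 6, 5, 2 and 1 alternatives. Members called higher numbered 9 to 12 when 1 library was left out, and 7 without control replicate 1 and resistant replicate 3 together, while genes called higher over the whole table numbered 1028 to 1107 and 848 in those fits. Members called lower numbered 2 with upper-quartile scaling, library totals, the replicate block and halved counts, where SRSF6 joined HNRNPA2B1. Members called lower numbered 0 with no filter and at an adjusted p of 0.01, and 0 to 1 when 1 library was left out. Genes called lower over the whole table numbered 1235 with no filter and 973 to 1154 when 1 library was left out. Without resistant replicate 1 the member called lower was SRSF6 (adjusted p = 0.0426 in edgeR), while HNRNPA2B1 lost its call (0.0694). At an adjusted p of 0.01 in edgeR, 800 genes were higher and 851 lower over the whole table, against 1269 and 1332 at 0.05. The cause of these shifts was not tested, and leaving out libraries did not separate their number from which library was left out. Replicate numbers did not pair the libraries: the correlation of deviations from the group means was -0.015, 0.033 and -0.006 for numbers 1, 2 and 3, and the fit with the replicate block called 10 members higher and 2 lower. Low counts limit what can be said of PTBP2, HNRNPUL2, SRSF8 and SRSF4, with an SE of 0.18 to 0.28. Shared sequence limits U2AF1, with 94.3% of its 50-base words in other transcripts. It also limits HNRNPUL2, with 43.2% of its words in the read-through HNRNPUL2-BSCL2.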
